A study of Mus musculus with 8 samples.

Results

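P2X receptors are cation channels that open when ATP binds outside the cell, and the mouse genome encodes 7 subunits, P2rx1 to P2rx7. All 7 were found by identifier among the 54532 genes of the deposited count table, and their RNA was described in microglia, which are the macrophages that live in the brain and spinal cord. Each of the 8 libraries was made from the spinal cord of 1 female mouse. Of the mice, 4 were wild type (WT), and the other 4 had the genotype labelled Cd11b-P2X4mCherryIN KI (KI below). Live cells with CD11b on the surface, little CD45 and no Ly6C had been collected by flow cytometry. The labels give no age, treatment, batch or further allele for either group.

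A functional P2X channel is a trimer, and 1 subunit can assemble with itself or with certain relatives. P2X4 is known as the microglial subunit that spends much of its time in endosomes and lysosomes, reaches the surface in small amounts, and rises in spinal microglia after nerve injury. P2X7 needs far more ATP to open and is known for driving the release of interleukin-1β through the NLRP3 inflammasome. Published work describes P2X4mCherryIN as a Cre-dependent allele in which P2X4 fused to mCherry, a red fluorescent protein, is internalised less and accumulates at the surface. The labels describe neither the allele nor the Cre driver beyond its name, which points to CD11b, the myeloid surface protein encoded by Itgam. Because that change is one of protein traffic, the comparison here asks what happens to the RNA of the subunits.

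P2X4 is drawn into the cell by an unusual endocytosis motif in its C-terminal tail, a tyrosine, any 2 residues, a glycine and a leucine. The motif is shown because it is the feature that the published allele is built around, and its letters are those of the reference genome (GRCm38, mm10), not of the knock-in. It was found at codons 378 to 382 of the 388 codons of the principal transcript, split between exon 11 and exon 12. The fragment below has 54 bases, lies on the plus strand within chr5:122727811-122728310, and has the 5 codons of the motif in capitals.
P2rx4 motif codons: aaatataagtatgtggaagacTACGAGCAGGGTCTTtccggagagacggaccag
The same search of the principal coding sequences of the other 6 subunits found no such motif.

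P2rx4 and P2rx7 are neighbours on chromosome 5 (mm10), both read on the plus strand. P2rx7 (ENSMUSG00000029468) runs from 122643911 to 122691432, and P2rx4 (ENSMUSG00000029470) starts 16.1 kb further on and runs from 122707544 to 122729738. P2rx2 (ENSMUSG00000029503) is elsewhere on the same chromosome, on the minus strand (110339812 to 110343212). P2rx1 (ENSMUSG00000020787, 72999103 to 73015200, plus strand) and P2rx5 (ENSMUSG00000005950, 73160421 to 73172685, plus strand) both lie on chromosome 11. P2rx3 (ENSMUSG00000027071, 84998583 to 85037462, minus strand) lies on chromosome 2 and P2rx6 (ENSMUSG00000022758, 17561885 to 17577800, plus strand) on chromosome 16. The longest identical run between the transcripts of any 2 subunits was 26 bases, for P2rx2 and P2rx3, and for P2rx4 and P2rx7 it was 19 bases.

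The promoters of P2rx4 and P2rx7 are shown because these adjacent genes gave nearly all of the family's RNA. Each sequence runs on the plus strand from 250 bases before to 50 bases after the start that RefSeq lists (GRCm38.p6), which for P2rx7 lies a few bases inside the GENCODE gene start given above. Capitals mark GAGGAA, the core that PU.1, the myeloid transcription factor encoded by Spi1, binds.
P2rx4, chr5:122707294-122707593: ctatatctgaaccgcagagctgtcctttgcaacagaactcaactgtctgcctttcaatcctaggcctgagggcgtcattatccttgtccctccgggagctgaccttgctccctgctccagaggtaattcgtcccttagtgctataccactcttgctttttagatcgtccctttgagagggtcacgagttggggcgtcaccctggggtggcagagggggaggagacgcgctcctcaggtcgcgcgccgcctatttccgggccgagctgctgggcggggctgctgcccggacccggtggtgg
P2rx7, chr5:122643677-122643976: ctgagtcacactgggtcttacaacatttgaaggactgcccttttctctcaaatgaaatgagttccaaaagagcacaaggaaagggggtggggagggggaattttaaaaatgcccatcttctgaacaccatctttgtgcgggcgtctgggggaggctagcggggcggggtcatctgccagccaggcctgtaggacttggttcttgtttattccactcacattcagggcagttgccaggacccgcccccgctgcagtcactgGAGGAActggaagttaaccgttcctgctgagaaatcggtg
Searched on both strands, the P2rx4 window held no GAGGAA and the P2rx7 window held 1, beginning 10 bases past the RefSeq start. Of 32851 promoter windows of the same kind, 28.3% held GAGGAA. Neither window held GAAA placed 2 bases after GGAA or after another GAAA, the composite motifs of interferon regulatory factors (IRFs), which 2.72% and 3.44% of promoters held. The table had entries for 4 of the 7 subunits, and the P2rx7 window shown is that of the first of its 2 listed starts.

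The libraries held 45167483 to 54049801 reads on genes, so that 3 reads, the most that a gene counted 0 times may stand for, were worth 0.0555 to 0.0664 CPM (counts relative to library size). The 8 microglia markers, among them P2ry12 and Tmem119, summed to 28090 to 32376 CPM in WT and 26456 to 30113 CPM in KI. Markers of other cells were also present. The 6 astrocyte markers summed to 324 to 396 CPM in WT and 319.6 to 387 CPM in KI, of which Slc1a3 alone gave 299.6 to 369.6 CPM over the 8 libraries. The 6 oligodendrocyte markers summed to 164 to 284 CPM in WT and 148 to 273 CPM in KI. The 6 endothelial and mural markers summed to 35.4 to 53.1 CPM in WT and 39.9 to 50.5 CPM in KI. Of that sum, Pecam1 alone gave 29.4 to 49.3 CPM over the 8 libraries, and each other marker gave at most 4.80 CPM. Markers of neurons (at most 15.5 CPM), border macrophages (at most 16.98 CPM) and T, B and NK cells (at most 3.24 CPM) were lower in every library. Their part in the levels of the subunits was not tested. Of 17291 genes tested between KI and WT with edgeR's quasi-likelihood test, 0 (0%) had a Benjamini-Hochberg adjusted p under 0.05. At an unadjusted p under 0.05 there were 1347 (7.79%), and with no overlap between the 4 KI and the 4 WT libraries there were 855 (4.94%). DESeq2 called 250 genes. The deposited gene counts do not separate the RNA of the tagged allele from that of the normal one, so P2rx4 cannot check the genotype, and Itgam had 311 ± 14.02 CPM (SD, n = 4) in WT against 314 ± 17.9 CPM in KI.

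P2rx4 was the most abundant subunit. Its reads numbered 44339, 34502, 38647 and 42441 in the WT libraries (mice 503, 504, 506 and 527). They numbered 38567, 45171, 42256 and 42284 in the KI libraries (mice 513, 526, 528 and 549). Scaled to library size these were 812, 741, 779 and 842 CPM in WT and 862, 851, 938 and 785 CPM in KI. WT 504 was the lowest and KI 528 the highest library, and the groups overlapped because KI 549 lay within the WT range. KI 528 also had the highest sum of 6 monocyte and neutrophil markers, 49.8 CPM, and WT 504 had the next highest, 20.95 CPM. The remaining libraries had 2.47 to 16.3 CPM. The part of these markers in the P2rx4 levels was not tested. By CPM over the 8 libraries P2rx4 ranked 163 of 54532 genes, and per exon length (RPKM, the CPM per kilobase of exon) it ranked 347 of 21918 protein-coding genes.

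P2rx7, the high-threshold channel, came second. The WT libraries held 226, 338, 309 and 289 CPM and the KI libraries 300, 244, 269 and 290 CPM. The lowest and the highest library were both WT (503 and 504), and the KI range lay inside the WT range. P2rx7 ranked 622 of all genes by CPM and 1026 of the protein-coding genes per exon length.

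P2rx1 is the rapidly desensitising subunit best known from platelets and smooth muscle. It was present at 9.68, 8.93, 10.5 and 13.9 CPM in WT and at 6.14, 8.65, 5.59 and 13.5 CPM in KI, ranking 6814 of the protein-coding genes per exon length. Of the KI libraries, 3 were below the lowest WT library, and KI 549 was close to the highest. The 6 platelet markers (Itga2b, Gp9, Ppbp, Gp1bb, Tubb1 and Gp1ba) summed to 17.3 to 19.96 CPM in WT and to 11.3, 15.4, 13.6 and 18.96 CPM in KI 513, 526, 528 and 549. Gp9 made up most of that sum, Gp1bb had 0 reads in every library, and 4 of the 6 markers passed the filter on low counts. The part of platelet RNA in the P2rx1 values was not tested.

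The other 4 subunits had few reads. P2rx2 and P2rx5 were near the detection limit of 3 reads, which is higher where a pair counts as 2 reads. P2rx6 ranged from under that limit to well above it, at 2 to 18 reads. P2rx3, the pain-sensing subunit of sensory neurons, varied most, with 6, 22, 94 and 8 reads in WT and 57, 3, 31 and 0 in KI. Both groups held high and low libraries, and WT 506 and KI 513 held most of the reads of their group. The 6 neuron markers summed to 3.57 to 7.92 CPM in WT and to 0.555 to 15.5 CPM in KI. Their sum was 4.21 CPM in WT 506 and 6.61 CPM in KI 513. The highest sum was in KI 526, with 3 P2rx3 reads, and the lowest in KI 528, with 31. The part of neuronal RNA in the P2rx3 reads was not tested. P2rx6, which rarely forms channels on its own, had 8, 11, 6 and 6 reads in WT and 12, 18, 2 and 4 in KI. P2rx5 had 2 to 6 reads in WT and 0 to 7 in KI. P2rx2, a slowly desensitising neuronal subunit, had 2 or 3 reads in WT and 0 to 4 in KI, so most of its counts were at or under 3 reads. Some exon sequence is shared with other genes, 554 bases of P2rx6 with Slc7a4 (13.9% of its exon length) and 51 bases of P2rx3 with Ssrp1. Without strand in the counting, reads there cannot be told apart.

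**Figure D1:**
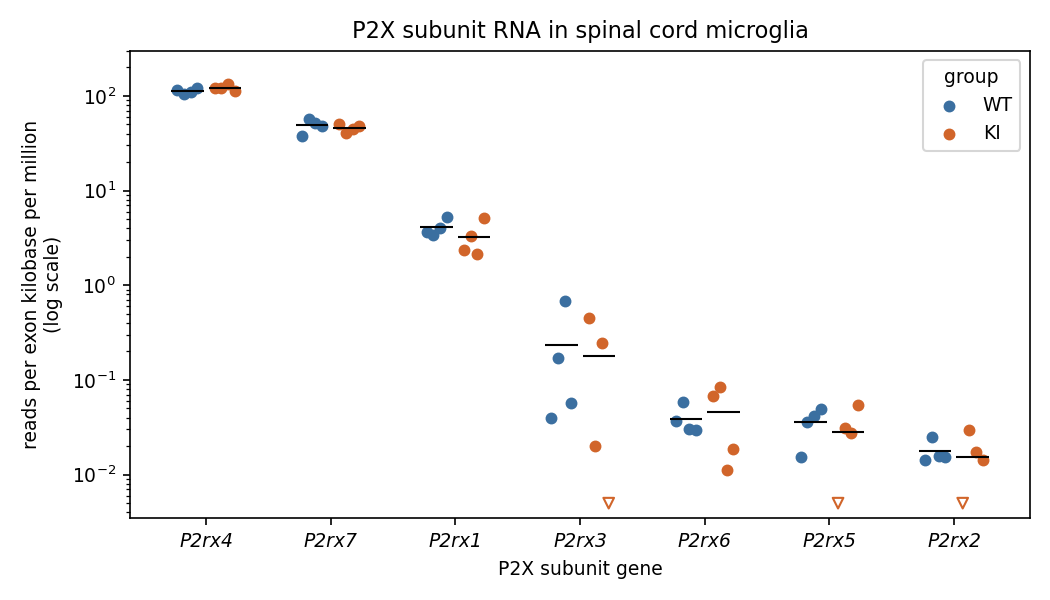
Levels of the 7 subunits in each library, in RPKM on a log scale, with WT in blue, KI in orange and the group mean as a black line. P2rx4 and P2rx7 stand above P2rx1, and the other 4 subunits lie below 1, with open triangles at the bottom for libraries with 0 reads.

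Per exon length the order was P2rx4, P2rx7, P2rx1, P2rx3, P2rx6, P2rx5 and P2rx2. The first 3 steps were present in 8 of 8 libraries. The RPKM level of P2rx4 was 2.49-fold that of P2rx7, P2rx7 was 13.4-fold P2rx1, and P2rx1 was 33.4-fold P2rx3, as geometric means on the log2(RPKM + 0.01) scale. Each of these steps had an exact sign-flip p of 0.0078 (2-sided, 8 libraries), the smallest that 8 libraries can give, and a Benjamini-Hochberg value of 0.0109 over the 21 pairs of subunits. P2rx3 against P2rx6 did not differ beyond the spread (higher in 6 of 8 libraries, adjusted p = 0.189 by the exact sign-flip test). P2rx6 against P2rx5 did not either (4 of 8 libraries, adjusted p = 0.555 by the same exact test). P2rx5 was 1.496-fold P2rx2 in level and higher in 7 of 8 libraries (adjusted p = 0.0205, exact sign-flip test), a step that rests on 0 to 7 reads. Both genes had 2 reads in WT 503 and 4 reads in KI 526, where P2rx5 was higher only through its shorter summed exons (2395 against 2574 bases). Per kilobase of principal transcript P2rx5 was lower in both, at 0.0153 against 0.0175 in WT 503 and 0.0315 against 0.0360 in KI 526. This step therefore depends on the length used. Of the 21 pairs, 17 passed.

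P2rx4 gave 63.6% to 73.8% of the summed RPKM of the family, P2rx7 24.1% to 34.2% and P2rx1 1.18% to 3.11%. P2rx2, P2rx3, P2rx5 and P2rx6 together gave 0.0527% to 0.458%. These shares depend on the length used. The exons of P2rx4 sum to 7025 bases over 9 annotated transcripts, some with retained introns, while its principal transcript has 2702 bases. For P2rx7 the lengths are 5970 and 4936 bases. With principal transcript lengths the share of P2rx4 was 79.1% to 85.9% and that of P2rx7 13.1% to 19.8%.

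The balance of P2rx4 and P2rx7 is of interest because both answer ATP in the same cell, at low and at high concentrations. The ratio of their RPKM levels was 3.05, 1.86, 2.14 and 2.47 in the WT libraries and 2.44, 2.97, 2.97 and 2.30 in the KI libraries. WT 503 had the highest ratio and WT 504 the lowest, so the KI values lay between them. The mean was 2.38 ± 0.510 in WT and 2.67 ± 0.349 in KI (SD, n = 4). The log2 ratio was 0.18 higher in KI (95% interval -0.26 to 0.62), with an exact permutation p of 0.4 (2-sided, 70 assignments, smallest possible 0.0286). Over the 8 libraries the ratio averaged 2.52 per summed exon length and 5.43 per principal transcript length.

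**Figure D2:**
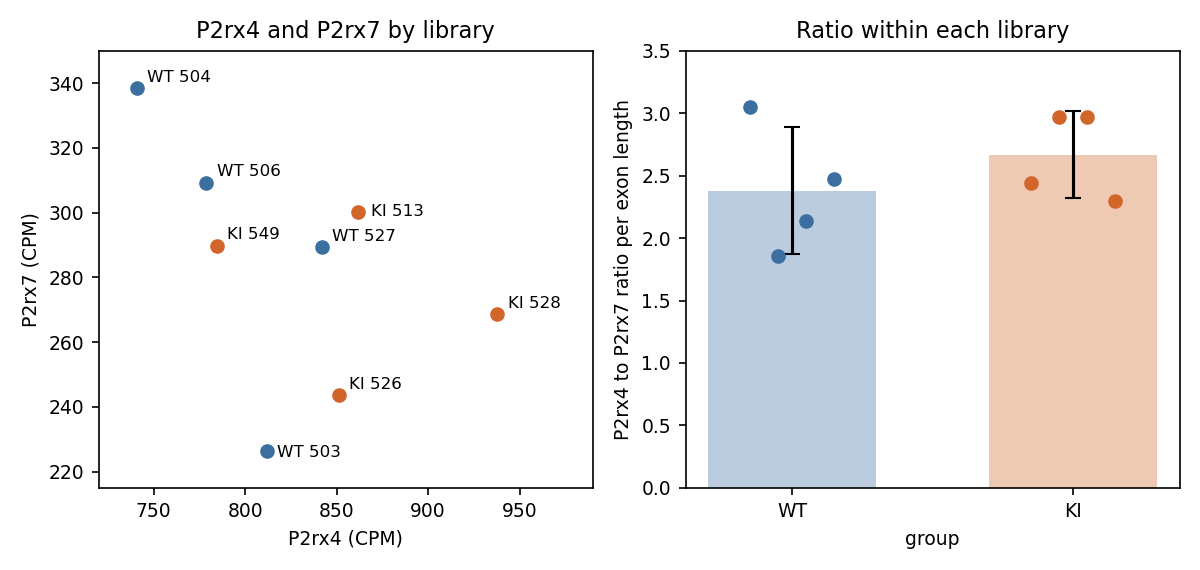
Left, P2rx4 against P2rx7 in CPM, 1 point per library (WT blue, KI orange), with both axes starting above 0. Right, the P2rx4 to P2rx7 ratio of RPKM levels in each library, with bars at the group mean and error bars of 1 SD (n = 4), showing the KI values of 2.30 to 2.97 inside the WT range of 1.86 to 3.05.

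Across the 8 libraries the log2 CPM of P2rx4 and P2rx7 had a Pearson r of -0.45 (exact permutation p = 0.257) and a Spearman rho of -0.55 (exact permutation p = 0.171). Without KI 528 and WT 504, the libraries farthest from the median of P2rx4, r was -0.19 (exact permutation p = 0.663, n = 6). No relation between the levels was shown. Within groups the SD of the log2 CPM of P2rx4 was 0.0933, and 4.8% of tested genes had a smaller one. The tested genes span all levels, so this does not set P2rx4 apart from other abundant genes. The SD was 0.199 for P2rx7, 0.451 for P2rx1 and 2.61 for P2rx3, against a median of 0.331 over the tested genes.

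No P2X subunit passed the test between KI and WT, as no gene did. The WT mean of P2rx4 was 793 ± 43.5 CPM and the KI mean 859 ± 62.7 CPM (SD, n = 4). The log2 fold change, KI over WT, was 0.11 (SE 0.066, edgeR adjusted p = 0.735), with a 95% interval of -0.03 to 0.26, or 0.978-fold to 1.199-fold. For P2rx7 the WT mean was 291 ± 47.4 CPM and the KI mean 276 ± 25.02 CPM. There the log2 fold change was -0.08 (SE 0.117, edgeR adjusted p = 0.937), and the interval was 0.791-fold to 1.13-fold. In RNA from sorted bulk cells, fewer cells that make a transcript and less of it per cell cannot be told apart.

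P2rx1 had group means of 10.8 ± 2.18 (WT) and 8.47 ± 3.602 CPM (KI), with a log2 fold change of -0.34 (SE 0.289, edgeR adjusted p = 0.849). Without KI 549 the log2 fold change was -0.66 (edgeR unadjusted p = 0.0215, adjusted p = 0.449), and over 18 alternatives the adjusted p ranged from 0.449 to 0.988. P2rx3 had a log2 fold change of -0.39 with an SE of 1.32 (edgeR adjusted p = 0.974), and without WT 506 it was 1.02. The spread between libraries, 0 to 94 reads, left the direction of P2rx3 undetermined. P2rx2, P2rx5 and P2rx6 did not pass the filter on low counts. Fitted without that filter they had log2 fold changes of -0.18, -0.31 and 0.22 and edgeR adjusted p-values of 0.996, 0.980 and 0.986.

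**Figure D3:**
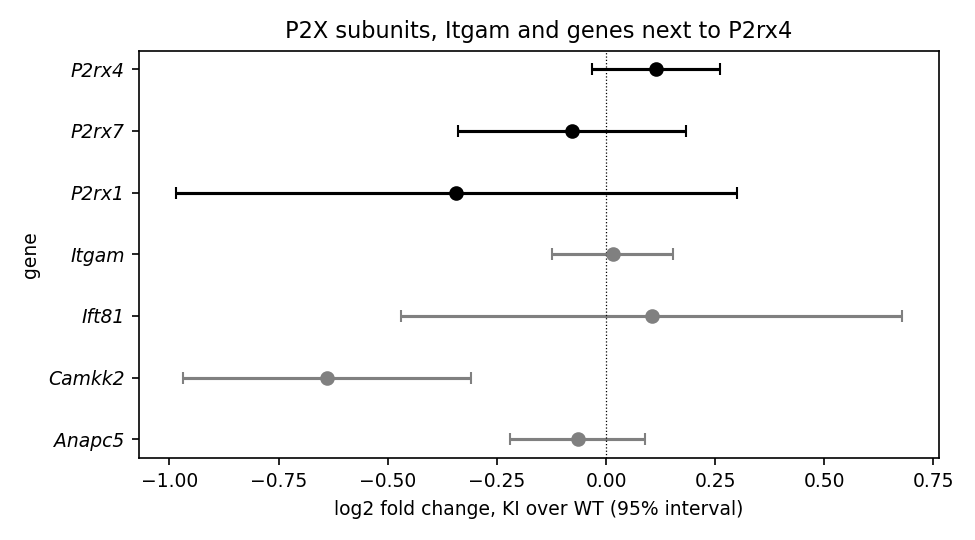
Log2 fold change of KI over WT with its 95% interval from edgeR's quasi-likelihood fit, for 3 P2X subunits (black) and for Itgam and 3 genes near P2rx4 (grey). The intervals of P2rx4, P2rx7 and P2rx1 include 0, and that of Camkk2 runs from -0.97 to -0.31.

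The published allele was made at P2rx4 itself, so the genes around it were also examined. Camkk2, a calcium and calmodulin dependent kinase that phosphorylates AMPK, is the next gene after P2rx4. It is read from the opposite strand, so that the ends of the genes face each other 1.43 kb apart. Camkk2 had 29.2, 24.6, 28.5 and 30.1 CPM in WT and 19.1, 19.7, 19.6 and 13.6 CPM in KI. The groups did not overlap, with KI 549 the lowest library and WT 504 the lowest of its group. The means were 28.1 ± 2.41 and 18.0 ± 2.94 CPM (SD, n = 4), a log2 fold change of -0.64 (SE 0.148). The edgeR quasi-likelihood test gave an unadjusted p of 0.0015 and an adjusted p of 0.507, so the difference did not pass. It lay between -0.70 and -0.53 when any 1 library was left out, and DESeq2 gave an adjusted p of 0.00425, while over all alternatives the adjusted p reached 0.864. P2rx4 shares 0 exon bases with any annotated gene.

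Anapc5, a subunit of the anaphase-promoting complex that lies beyond Camkk2, had 131 ± 2.56 (WT) and 125 ± 8.61 CPM (KI; log2 fold change -0.06, edgeR adjusted p = 0.893). Ift81, an intraflagellar transport gene on the far side of P2rx7, averaged 8.90 ± 1.88 and 9.57 ± 3.01 CPM (log2 fold change 0.11, edgeR adjusted p = 0.964). The gene model Gm43684, which was tested at 0.193 and 0.311 CPM, had an edgeR adjusted p of 0.964. Mir8115, whose 119 bases lie within a P2rx7 exon, had 0 reads in every library. Any read there falls on both genes, so this count cannot show whether its RNA was present. Of the protein-coding genes on either side of the P2rx7 and P2rx4 pair, Camkk2 was the one whose groups did not overlap. That condition was met by 855 tested genes (4.94%), and by 6.05% of those with a mean CPM of 5 or more.

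**Figure D4:**
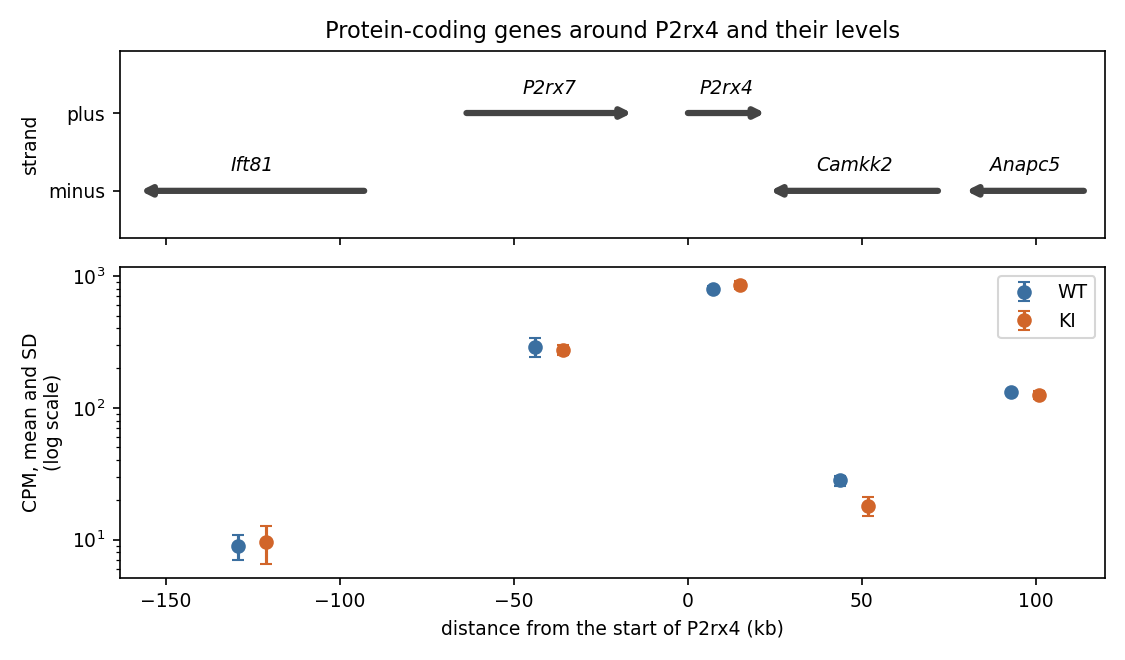
Top, the 5 protein-coding genes within 100 kb of P2rx7 or P2rx4, drawn to scale by distance from the start of P2rx4, with arrows pointing in the direction of reading. Bottom, their levels in CPM on a log scale (mean and SD, n = 4, WT blue, KI orange, set side by side at the middle of each gene), in which Camkk2 averages 28.1 in WT and 18.0 in KI.

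Genes that act with the P2X channels were then counted in 5 lists of 53 different genes. Of these, 46 were tested and 0 were called, while 3 were higher and 8 lower in KI at an unadjusted p under 0.05 (23.9% of those tested), and 6 had groups that did not overlap (13%). Of the 10171 tested genes whose mean CPM was 5 or more, 11% and 6.05% met those conditions. The lists were chosen with earlier results of these data known, so these shares cannot show that the lists differ from other genes. The median log2 fold change was -0.09 in the lists and 0.00053 over all tested genes.

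Control of P2rx4 transcription. IRF8 and IRF5 are known to drive P2rx4 in microglia after nerve injury. Irf8 had 578 ± 53.6 (WT) and 547 ± 59.6 CPM (KI), with a log2 fold change of -0.08 (edgeR adjusted p = 0.9001). Irf5 averaged 166 ± 24.5 and 150 ± 24.6 CPM (-0.14, edgeR adjusted p = 0.868), and the groups of both genes overlapped. Irf7, an interferon-induced member of that family, had a log2 fold change of -0.11 with overlapping groups. Spi1, which encodes PU.1, had 305 ± 25.1 (WT) and 225 ± 26.5 CPM (KI). Csf1r, the receptor that keeps microglia alive and a microglia marker as well, averaged 2866 ± 242 and 2250 ± 232 CPM. The groups of both did not overlap, with log2 fold changes of -0.44 and -0.35 and an edgeR adjusted p of 0.507 each. All 5 genes of the list had a fold change below 0, and 2 had an unadjusted p under 0.05. Such a p was reached by 7.79% of all tested genes and by 11% of those with a mean CPM of 5 or more. P2rx4 had a log2 fold change above 0, but its interval of -0.03 to 0.26 included 0. An opposite direction of P2rx4 and these genes was therefore not shown.

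Endocytosis and traffic of P2X4. The 5 AP-2 subunit genes, whose product reads the motif shown above, had overlapping groups, and the most abundant of them, Ap2m1, had 110 ± 10.2 (WT) and 103 ± 6.503 CPM (KI). The clathrin chains Cltc and Clta had log2 fold changes of -0.03 and 0.04. Dnm2, the dynamin that cuts vesicles from the membrane, averaged 104 ± 10.2 and 78.0 ± 12.1 CPM (log2 fold change -0.42, edgeR unadjusted p = 0.0054, adjusted p = 0.517). Of the genes of the endosomes and lysosomes that hold P2X4, Rab7 and Cd63 had log2 fold changes of 0.09 and 0.15 with overlapping groups. Lamp1, a main lysosomal membrane protein, had 534 ± 61.8 (WT) and 332 ± 60.2 CPM (KI), and the groups did not overlap. Its log2 fold change was -0.69 (SE 0.129), with an edgeR unadjusted p of 0.000335 and an adjusted p of 0.414. In the list of 13 genes, all tested, 4 had a fold change above 0 and 9 below 0. An unadjusted p under 0.05 was reached by 2, both lower in KI. It was reached by 7.79% of all tested genes and by 11% of those with a mean CPM of 5 or more.

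ATP release and breakdown. Entpd1, the ectonucleotidase CD39 that removes extracellular ATP, was at 1700 ± 76.1 (WT) and 1521 ± 143 CPM (KI), with a log2 fold change of -0.16 (edgeR unadjusted p = 0.0446, adjusted p = 0.631). Slc17a9, which loads ATP into vesicles and lysosomes, was at 13.96 ± 1.36 and 9.20 ± 1.60 CPM with no overlap (-0.60, edgeR adjusted p = 0.517). Enpp1, another enzyme that splits ATP, went the other way at 46.5 ± 5.77 and 57.3 ± 6.16 CPM, also with no overlap (0.30, edgeR adjusted p = 0.600). The ATP release channels Panx1 and Gja1 averaged 7.72 and 3.75 CPM in WT, and their groups overlapped, as did those of Nt5e, which makes adenosine from AMP. Gja1 is also an astrocyte marker. Of the 10 genes 6 were tested, 1 of which was higher and 2 lower in KI at an unadjusted p under 0.05. The share over all tested genes was 7.79%, and 11% at a mean CPM of 5 or more.

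Downstream of P2X4, the calmodulin gene Calm2 had 1405 (WT) and 1516 CPM (KI), with overlapping groups, and Calm3 had 40.3 and 35.1 CPM. Pla2g4a and Ptgs1 make prostaglandins from membrane lipids. Pla2g4a had a log2 fold change of -0.0023 and Ptgs1 one of -0.14 (edgeR unadjusted p = 0.0342, adjusted p = 0.609). The p38 kinase gene Mapk14 averaged 121 ± 19.3 and 114 ± 4.48 CPM. Bdnf, the growth factor known as an output of P2X4 in spinal microglia, had 8, 12, 8 and 14 reads in WT and 4, 6, 4 and 4 in KI. It is named because of these values, it did not pass the filter on low counts, and it has no test. All of these counts are even, and a pair may count as 2 reads, so they may stand for fewer fragments. Mapk11 and Mapk13, also not tested, had overlapping groups. Of the 12 genes 9 were tested, and the 2 with an unadjusted p under 0.05, Camkk2 and Ptgs1, were both lower in KI. Over all tested genes the share was 7.79%, and 11% at a mean CPM of 5 or more.

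Downstream of P2X7, all 14 genes were tested and none had groups that did not overlap. No overlap was found for 4.94% of all tested genes and for 6.05% of those with a mean CPM of 5 or more. Casp1, the inflammasome protease, had 108 ± 13.8 (WT) and 129 ± 6.48 CPM (KI), with a log2 fold change of 0.25 (edgeR unadjusted p = 0.0285, adjusted p = 0.598). Pycard, its adaptor, averaged 328 ± 18.7 and 367 ± 27.95 CPM (0.16, edgeR unadjusted p = 0.0469, adjusted p = 0.635). The potassium channel gene Kcnk13 averaged 157 ± 20.1 and 145 ± 12.6 CPM and the inflammasome kinase gene Nek7 443 ± 22.7 and 417 ± 59.0 CPM. The sheddases Adam10 and Adam17 were abundant, at 968 and 388 CPM in WT, with log2 fold changes of -0.08 and -0.001. In this list 6 genes had a fold change above 0 and 8 below 0. At an unadjusted p under 0.05, 2 were higher and 0 lower in KI. The share over all tested genes was 7.79%, and 11% at a mean CPM of 5 or more.

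**Figure D5:**
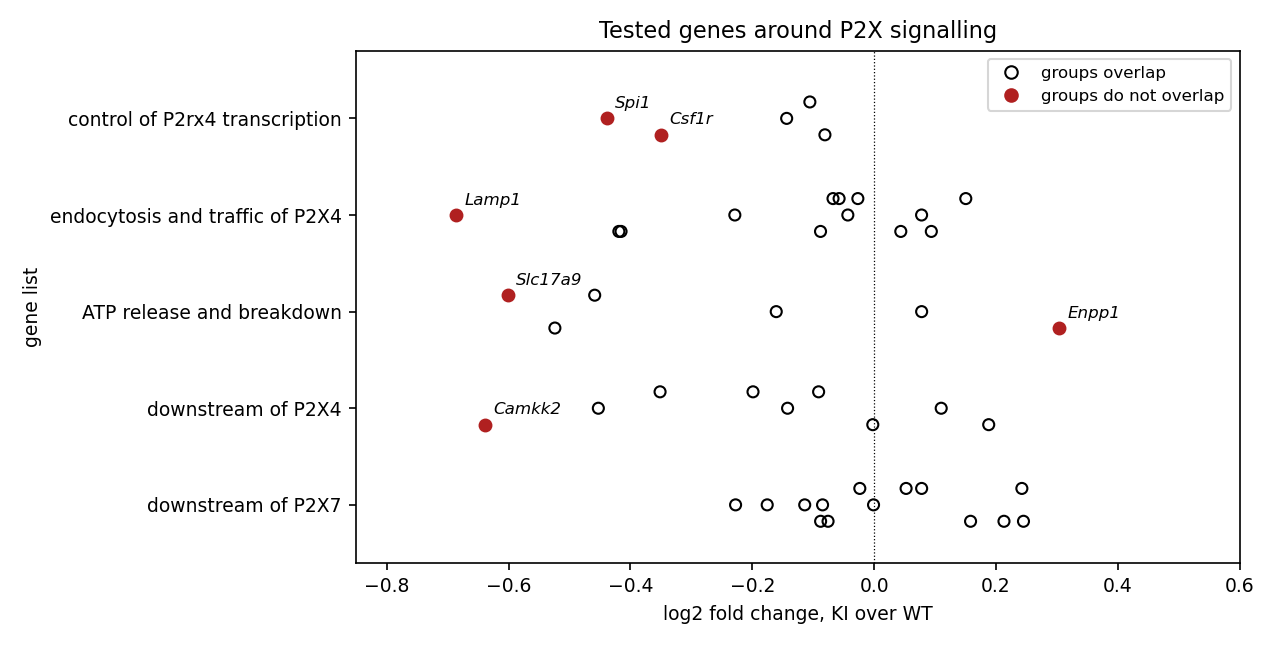
Log2 fold changes (KI over WT) of the 46 tested genes in the 5 lists, 1 point per gene, spread vertically within a list for legibility. The 6 filled points are the genes whose KI and WT libraries did not overlap (Spi1, Csf1r, Lamp1, Slc17a9, Enpp1 and Camkk2), none of which had an adjusted p under 0.05 in edgeR's quasi-likelihood test.

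The genes most like P2rx4 across the 8 libraries were ranked by Pearson r of log2(CPM + 0.01), among 9084 protein-coding genes whose mean CPM was 5 or more. They were Immt (r = 0.95), Ncl (0.94), Casp8ap2 (0.93), Ldhb (0.93) and Lpl (0.92). For P2rx7 they were Coa5 (0.96), Slc39a8 (0.95), Aldh9a1 (0.95), Kif9 (0.94) and Camk2d (0.93). With 8 points that share library and depth, and 9084 genes searched, these values are a description only.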

How the data were processed

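RNA sequencing counts of 8 libraries were used, grouped by the genotype in the labels. The submitters' processing notes name build mm10, featureCounts 2.0.3 and STAR 2.7.5c, besides limma, edgeR, R 3.6.0 and SAMtools 1.9, with no step for each. Per the file headers, the deposited counts are reads over the exons of each gene, counted by featureCounts with paired-end input and no strand option. A pair may count as 2 reads, and 68.9% to 70.8% of the counts from 1 to 9 were even. The 8 columns that match no label of these libraries were not used. Also deposited were FPKM values, which by their values use a length about 188 to 191 bases shorter than the exon length, and a normalized signal. Multiplied by 1 size factor per library, the deposited normalized signal gave whole reads for 100% of values (within 0.01), the same counts. Of the identifiers, 54409 were paired with a symbol through GENCODE vM21 (mm10), which also gave positions and transcripts.

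KI was compared with WT by edgeR 4.0.16 (R 4.3.3) on the counts, with TMM scaling, filterByExpr (minimum count 10, minimum total 15), robust quasi-likelihood fit and group as the only term. RPKM is TMM-scaled CPM divided by the deposited exon length in kilobases. Adjusted p-values are Benjamini-Hochberg over all 17291 tested genes. Subunit levels were compared within libraries by exact sign-flip tests on log2(RPKM + 0.01), and ratios between groups by exact permutation tests. Intervals are 95%, and since reads carry no molecular identifiers, floors cover counting error only and take reads as independent. The labels give each library a mouse of its own, and chi-square per gene between library pairs was 28.4 to 66.2. Alternatives were DESeq2 1.42.0, the edgeR likelihood ratio test, limma-voom (limma 3.58.1), other scalings and filters, halved counts, log2(FPKM + 1) and log2(FPKM + 0.1), and leaving out each library. Principal transcript lengths, and the alternatives for the mean ratio, were added after the data were seen. The named genes were the subunits, Itgam, tested genes within 100 kb of P2rx4 or P2rx7, the 5 genes most like each of these, and per list up to 6 of the highest level and 2 of the smallest p. Members, lists and tests were chosen with earlier results of these data known. Protein sequences were not used here.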

Additional observations from a re-analysis of the deposited data

Results flagged for a closer look

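Of 16 groups of 4 libraries checked for a single library far from the others (the 7 subunits in WT and in KI, and the P2rx4 to P2rx7 ratio), 1 was marked. P2rx2 was at 0.0644 CPM in WT 504, against 0.0366, 0.0403 and 0.0397 CPM in WT 503, 506 and 527, so that the gap took up 0.867 of the range, above Dixon's 95% critical value for 4 libraries. These levels are 3 reads in WT 504 and 2 reads in each of the other WT libraries. Chance alone marks about 1 group in 20.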

How the results depend on the processing

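No paired analysis was possible because the groups share no mouse number. The count of genes called between KI and WT was 0 with the quasi-likelihood test, 250 with DESeq2, 42 with edgeR's likelihood ratio test and 1 on log2(FPKM + 1). The cause was not tested. It stayed at 0 to 0 when any 1 library was left out. The 4 tested subunits, P2rx1, P2rx3, P2rx4 and P2rx7, were not called under any alternative run for them, of which P2rx3 lacks the minimum mean CPM of 1. P2rx2, P2rx5 and P2rx6 were fitted only without the filter, and were not called. Camkk2, Spi1, Csf1r, Lamp1 and Slc17a9 were called by DESeq2 (adjusted p of 0.00425, 0.0132, 0.0486, 0.00178 and 0.0158), and Spi1 and Lamp1 by the likelihood ratio test. The subunit order was the same in every alternative run, with 16 to 18 of 21 pairs passing. The mean P2rx4 to P2rx7 ratio of 2.52 was 5.43 with principal transcript lengths, 2.97 in raw reads with no length and 2.51 in deposited FPKM, so its size depends on the length chosen. The log2 ratio difference was 0.07 to 0.31, and r between both genes -0.69 to -0.17, without 1 library. Leaving out 1 library gave log2 fold changes of 0.07 to 0.16 for P2rx4, -0.66 to -0.19 for P2rx1, -0.18 to 0.0026 for P2rx7 (above 0 without WT 504) and -1.42 to 1.02 for P2rx3 (above 0 without WT 506, and 0.03 without KI 549). The sign also turned, with no call, for Itgam (-0.0099 to 0.048), Ift81 (-0.054 to 0.24), Gm43684 (-0.39 to 1.81), Irf7 (-0.38 to 0.079), Cltc (-0.095 to 0.024), Panx1 (-0.32 to 0.25), Nt5e (-0.98 to 0.20), Pla2g4a (-0.033 to 0.023), Mapk14 (-0.17 to 0.017), Nek7 (-0.14 to 0.0089) and Adam17 (-0.035 to 0.019). It turned for Panx1 with limma-voom (-0.061) and log2(FPKM + 0.1) (-0.019), for Pla2g4a with limma-voom (0.0017) and for Adam17 with upper quartile scaling (0.00043). Depth limits P2rx2, P2rx5 and P2rx6, with 18 reads or fewer in each library. For P2rx3, halving the counts left the log2 fold change at -0.38, against -0.39. Halving divides every count alike and nearly keeps the ratios between libraries, so it cannot show whether depth limits P2rx3.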
